A study of Mus musculus with 20 samples.

Results

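The cAMP signalling genes examined here were 46 named members of the pathway, and their promoter regions were taken as every 100-bp bin within 1 kb of any RefSeq transcription start site (TSS) of these genes on mm10. The rule found 693 bins, out of 1201951 bins in the deposited methylomes and 187059 bins within 1 kb of any RefSeq TSS, and each of the 46 genes had at least 1 bin. The measurement was reduced representation bisulfite sequencing (RRBS), which reads cytosine methylation at CpG-rich restriction fragments, and each value was the percent methylation of a bin in a sample. HSCs were sorted from C57BL/6J female mice, 3 months old at the start, that had received 0, 2, 4 or 10 cycles of 5-fluorouracil (5FU) at 150 mg/kg, 1 cycle per 3 weeks, and were taken 1 month after the last cycle. 5FU is an antimetabolite that kills cycling cells and so drives HSCs into division. The groups are called 0x (untreated, n = 4), 2x (n = 6), 4x (n = 4) and 10x (n = 6), with no genetic change in any group. The labels give blood as the tissue and the methods give bone marrow HSCs that were negative for lineage markers, CD34 and Flk2 and positive for cKit, Sca1 and CD150. The sources used here do not say whether a sample held cells of a single mouse or a pool, so the spread between samples may be partly technical.

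Cyclic AMP is made from ATP by adenylyl cyclases, which are stimulated or inhibited by G proteins downstream of receptors such as those for adrenaline and prostaglandin E. It is destroyed by phosphodiesterases. Its effectors are protein kinase A, whose regulatory subunits release the catalytic subunits when cAMP binds, and the Epac exchange factors, while anchoring proteins hold the kinase near its substrates and CREB family factors carry the signal to transcription. In the blood system prostaglandin E signalling through cAMP is known to favour HSC survival and engraftment, and adrenergic nerves act on the marrow niche.

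The sequences that the results turn on are given first, read from the GRCm38.p6 reference (the same build as mm10) on the plus strand, with each CpG that lies inside the bin in capitals. They are the bins of Akap12 and Pde2a with the largest differences between 10x and 0x, a bin of Pde4a and a pair of adjacent bins of Adcy3. These 5 bins hold between 1 and 4 CpGs each.
Akap12 (chr10:4267100-4267199): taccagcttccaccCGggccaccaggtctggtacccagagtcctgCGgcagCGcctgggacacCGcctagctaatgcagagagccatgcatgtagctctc
Pde2a (chr7:101451800-101451899): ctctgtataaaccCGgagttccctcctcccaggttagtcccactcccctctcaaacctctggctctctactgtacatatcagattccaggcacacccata
Pde4a (chr9:21184500-21184599): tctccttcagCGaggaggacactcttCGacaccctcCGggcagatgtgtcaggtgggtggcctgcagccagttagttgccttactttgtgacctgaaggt
Adcy3 (chr12:4133800-4133899): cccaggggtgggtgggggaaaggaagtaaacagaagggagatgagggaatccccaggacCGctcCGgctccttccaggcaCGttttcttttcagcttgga
Adcy3 (chr12:4133900-4133999): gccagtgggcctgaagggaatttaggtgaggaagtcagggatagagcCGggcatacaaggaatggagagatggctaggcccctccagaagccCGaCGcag
A second set is shown because it holds the full cAMP response element (CRE), the palindrome TGACGTCA that CREB binds and that contains a CpG. It was found, on either strand, in 3 of the 693 bins (0.433%) and in 0.303% of all bins near a TSS, and here the capitals mark the element.
Pde7a (chr3:19311400-19311499): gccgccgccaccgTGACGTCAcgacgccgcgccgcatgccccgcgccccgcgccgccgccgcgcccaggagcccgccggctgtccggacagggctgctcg
Pde7b (chr10:20725100-20725199): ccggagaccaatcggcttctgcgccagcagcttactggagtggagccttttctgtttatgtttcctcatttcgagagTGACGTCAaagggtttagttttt
Prkar1a (chr11:109650900-109650999): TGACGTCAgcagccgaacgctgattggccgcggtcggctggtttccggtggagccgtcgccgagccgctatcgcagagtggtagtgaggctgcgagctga

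Not every bin of the deposited values could be used in the same way. In 234 of the 693 bins (33.8%) at least 2 samples of a group held the same value to the last decimal, other than 0 or 100, and these repeated bins are reported apart from the rest. Per the methods, bins without a level in a sample were given the mean level of its group, which makes filled samples alike. Where a group held 1 repeated value and at least 2 other values, it lay within the range of the others in 231 of 232 cases and equalled their plain mean in 0. A bin filled in a single sample, or filled at 0 or 100, therefore cannot be recognised and may be among the bins without repeats. Of the 459 bins without repeats, 132 were constant within every group at 0 or 100, 194 were constant in some groups only, and 133 varied in every group. These 133 tested bins, from 40 genes, carried the comparisons. Over all bins near a TSS the shares were alike, with 36.9% repeated and 17.7% tested. No read counts came with the values, so depth above the stated minimum coverage, and counting error, are unknown. Among the tested bins, values at exactly 0 or 100 made up 49.6% to 69.2% per sample in 2x and 35.3% to 51.1% in 0x. The 4x samples had 11.3% to 53.4% and the 10x samples 18% to 49.6% of such values, and their part in the results was not tested.

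Promoters of the pathway were mostly unmethylated in HSCs of all groups. Of the 459 bins without repeats, 79.7% had a mean level below 10% over the 20 samples, 15.7% were above 80% and 1.96% lay between 20% and 80%, with a median of 1.88%. For all bins near a TSS without repeats these shares were 70.5%, 23.9% and 3.64%, with a median of 2.22%. All 132 constant bins stayed at the same end in all 20 samples, 88 of them at 0 and 44 at 100. The 234 repeated bins sat higher, with a median of 8.81% and 20.1% of them between 20% and 80%.

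The level divided by which start site a bin belonged to. A bin was assigned to the first start of the gene, the most upstream RefSeq TSS, when it lay within 1 kb of it, and otherwise to an internal start, from which a shorter transcript is annotated. Of 296 bins without repeats at first starts, 93.9% were below 10% and 2.70% above 80%. Of 163 such bins at internal starts, 54.0% were below 10% and 39.3% above 80%. With curated transcripts alone, 27.2% of 103 bins at internal starts were above 80%, against 2.58% of 271 bins at first starts. Bins at first starts held a median of 9 CpGs and those at internal starts a median of 3. The gene bodies that surround internal starts are commonly methylated in mammals.

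**Figure D1:**
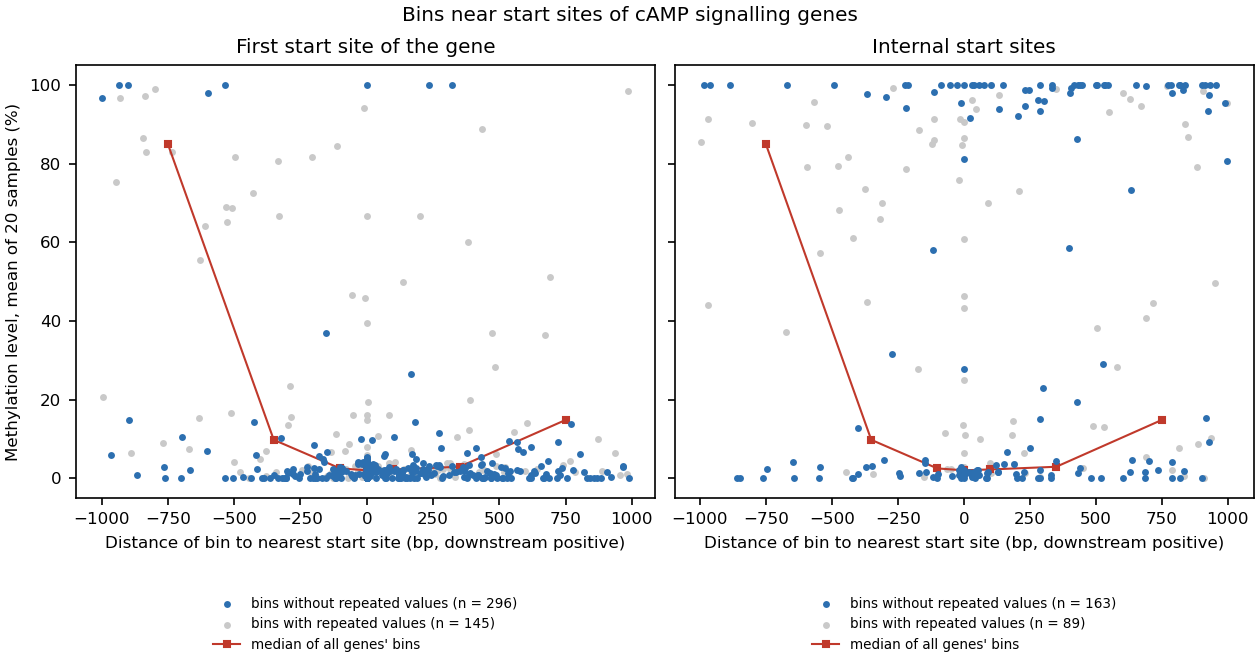
Mean methylation level over the 20 samples (%, y axis) of each of the 693 bins against the distance of the bin to its nearest start site (bp, x axis), for first starts (left) and internal starts (right); blue points are bins without repeated values, grey points bins with them, and the red line is the median of all bins near a TSS of any gene. At first starts 93.9% of the blue points lie below 10%, while at internal starts 39.3% lie above 80%.

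Far upstream of a start, levels were higher. More than 500 bp upstream the median was 55.6% over all 57 member bins and 3.55% over the 28 without repeats, and 85.1% over all bins near a TSS of any gene, repeats included. In bins that contained the TSS the median was 1.81% over 86 member bins, and 1.62% over the 59 without repeats. The mean level without repeats was 33.8% far upstream and 5.20% at the TSS. More than 500 bp downstream the median was 4.47% over 126 member bins and 2.71% over the 85 without repeats. The mean there was 28.5% without repeats.

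The roles in the pathway differed in where methylation was seen. Averaged over bins without repeats, 24 of the 46 promoters were below 10% and 22 were at or above it. All 3 receptors (the β1-adrenergic receptor Adrb1 and the prostaglandin E receptors Ptger2 and Ptger4) were between 1.77% and 3.46%, and all 3 inhibitory G protein subunits (Gnai1, Gnai2 and Gnai3) between 0.583% and 1.98%. The 7 transcription factors and coactivators were between 0.951% and 3.48%. These are Creb1, Crem and Atf1, which bind the CRE, the acetyltransferase Crebbp, and the cAMP-regulated coactivators Crtc1, Crtc2 and Crtc3. None of their 59 bins without repeats was above 80%. Among phosphodiesterases 11 of 13 were at or above 10%, and 34 of 159 bins (21.4%) were above 80%. Adenylyl cyclases had 5 of 9 at or above 10%, with 21 of 91 bins (23.1%) above 80%. Both Epac genes were at or above 10%, with 10 of 27 bins (37.0%) above 80%. Of all bins near a TSS without repeats, 23.9% were above 80%. At first starts alone, where 45 genes had a bin without repeats, those at or above 10% were Adcy2, Adcy3, Pde1b, Pde4b, Pde4c, Pde4d and Prkar1b. Of 6 protein kinase A subunits, 3 were at or above 10%, and of the 3 anchoring proteins 1 was. No test was made between roles, which differ in the number of annotated internal starts. Repeated bins are left out of these levels. For receptors and inhibitory G protein subunits, their group means were 57.7% to 73.1% in Ptger2 (3 bins) and 34.9% to 52.6% in Gnai2 (3 bins). They were 0% to 58.8% in Ptger4 (1 bin), and 6.26% or below in Adrb1, Gnai1 and Gnai3.

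Over bins without repeats, the highest promoter was that of Pde4c, a phosphodiesterase specific for cAMP, at 73.7%. Of its 10 bins, 7 held repeated values and are left out. Adcy4 followed at 61.3%, made up of 6.6% over its 4 bins at the first start and 97.8% over 6 bins at internal starts. Adcy6 was at 1.9% over 11 bins at its first start and 67.5% over 7 at internal starts. Rapgef3, which encodes Epac1, was at 2.3% over 7 bins and 65.0% over 14. Pde7a, a phosphodiesterase found in lymphoid cells, was at 1.5% over 11 bins and 66.7% over 3. In these last 4 genes, chosen after their values were seen, the first start was low and the internal starts were high. Pde4c and Pde4d went the other way, each with 1 bin at its first start, at 100%, and with 60.5% and 41.1% at internal starts.

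**Figure D2:**
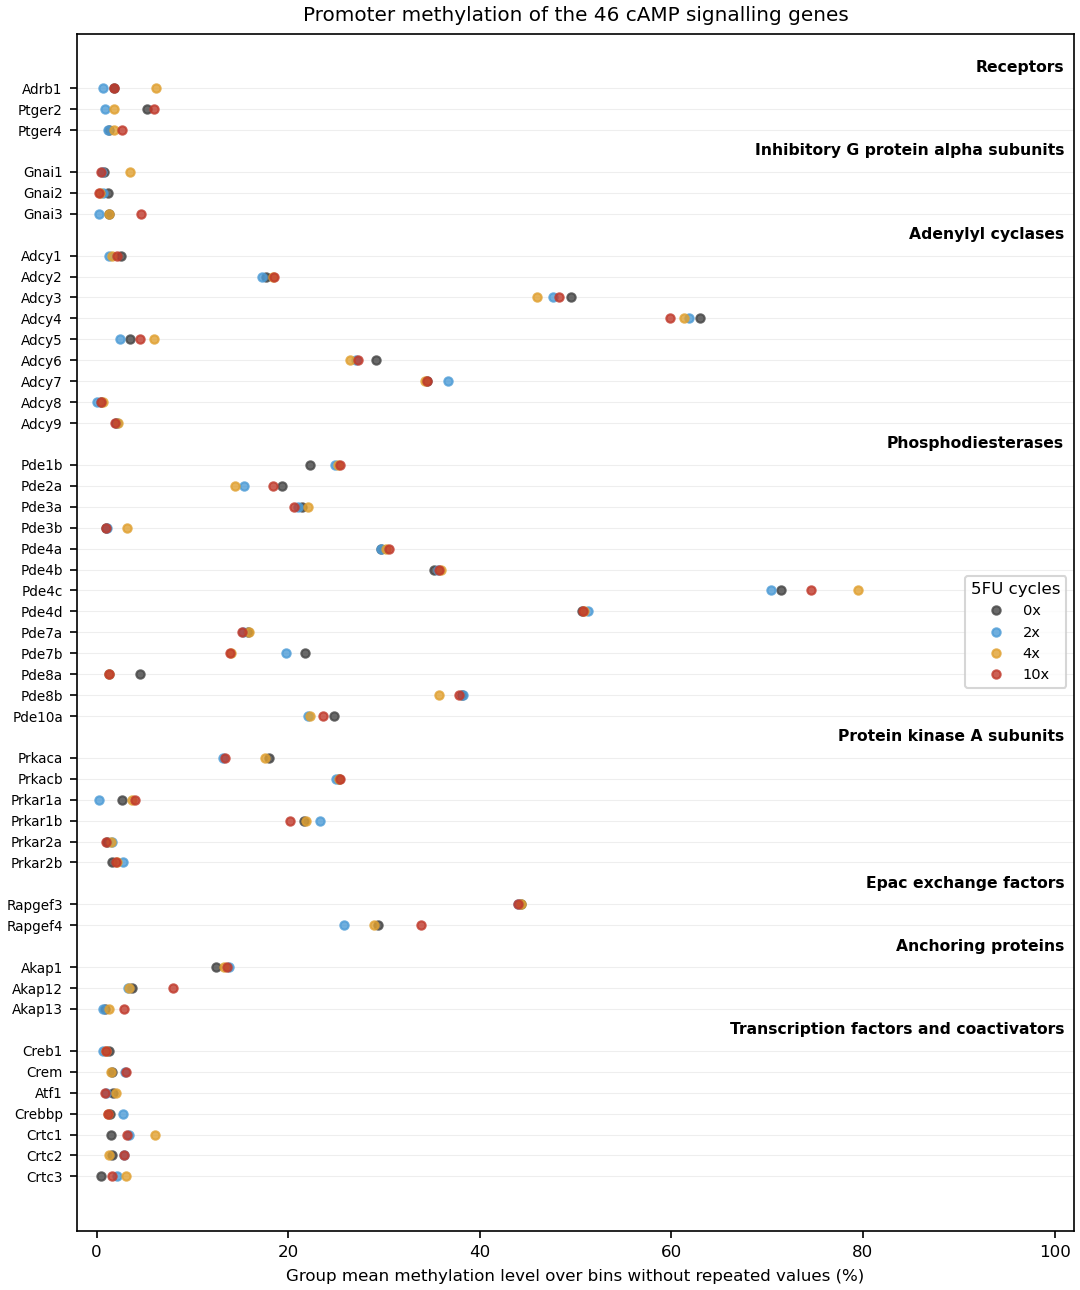
Group mean methylation level (%, x axis) of the promoter of each of the 46 genes (rows, by role), averaged over the bins within 1 kb of a TSS that hold no repeated values; grey, blue, orange and red points are 0x, 2x, 4x and 10x. Receptors, inhibitory G protein subunits and transcription factors lie near 0 in all groups, and phosphodiesterases, adenylyl cyclases and Epac genes reach up to 73.7% averaged over groups.

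The 6 genes without a tested bin were Adcy8, Akap1, Gnai3, Pde4d and the catalytic subunits Prkaca and Prkacb. Over their bins without repeats, Gnai3 went from 1.25% in 0x to 4.61% in 10x and Prkaca from 18% to 13.4%. Pde4d was at 50.7% in 0x and 50.8% in 10x, Prkacb at 25.3% and 25.4%, Akap1 at 12.5% and 13.6%, and Adcy8 at 0.492% and 0.427%. These have no test.

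The question of the design was whether repeated 5FU changes methylation at these promoters. Averaged over the 133 tested bins, a sample had 8.78% to 9.81% methylation in 0x, with a mean of 9.24% ± 0.52 (SD, n = 4). The 2x samples ran from 8.0% to 11.6% with a mean of 9.44% ± 1.31 (SD, n = 6), and the 4x samples from 8.03% to 9.77% with a mean of 8.87% ± 0.76 (SD, n = 4). The 10x samples ran from 8.31% to 11.4% with a mean of 9.52% ± 1.05 (SD, n = 6). All groups overlapped, and the differences from 0x (0.19, -0.37 and 0.27 percentage points for 2x, 4x and 10x) were smaller than the spread between samples. Within the label numbers up to 12 the difference was 0.67 points at 4x, and within those from 13 on it was -1.42. These numbers mark no stated batch. Over the 33024 tested bins near any TSS the group means were 13.9% in 0x and 4x, 14.3% in 2x and 14.1% in 10x. At first starts the member mean was 3.52% ± 0.50 in 0x and 4.96% ± 1.13 in 2x (SD, n = 4 and 6), and at internal starts it was 22.6% ± 0.96 and 19.9% ± 2.76. The differences at 2x, 1.44 points at first starts and -2.69 at internal starts, went in opposite directions. The ranges overlapped at both, although 1.44 points was larger than the SD of either group. At 4x the differences were 0.16 and -1.61 points, and at 10x 0.34 and 0.12, in the same order. These differences were not tested.

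**Figure D3:**
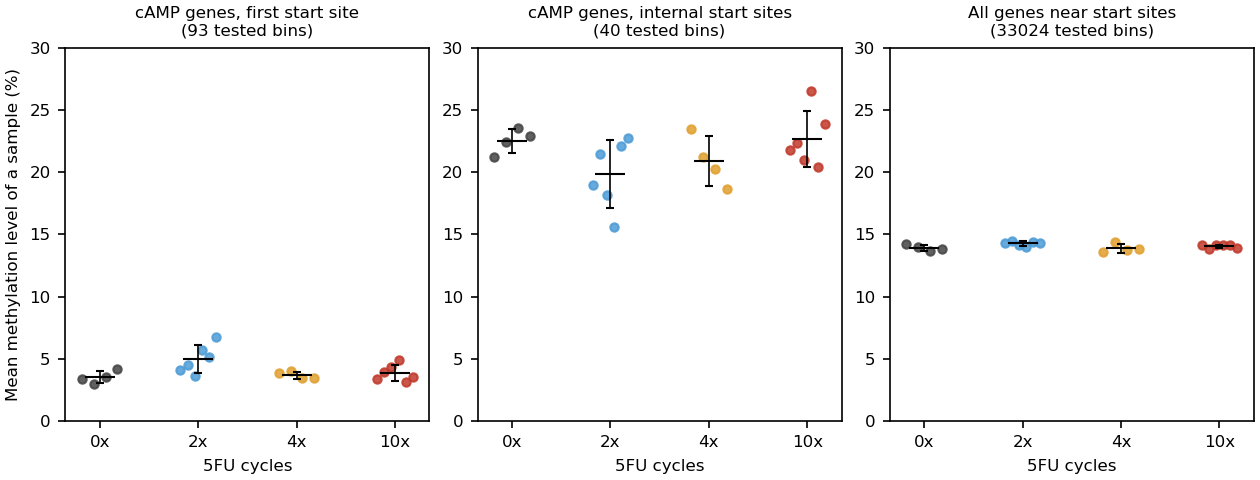
Mean methylation level of each sample (%, y axis) over the tested bins of cAMP genes at first starts (93 bins) and internal starts (40 bins) and over all 33024 tested bins near a TSS, by 5FU cycles (x axis); points are samples, bars mean ± SD. The 0x samples overlap every treated group in the panels of the cAMP genes.

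Each promoter was then averaged over its tested bins and compared with 0x by limma, with p-values adjusted over all 15119 genes with tested bins. None of the 40 member promoters passed an adjusted p of 0.05 at 2x, 4x or 10x or in the slope over cycles, where 0%, 0%, 0.0198% and 0% of all promoters passed. The lowest adjusted p of a member was 1.0 at 2x, 0.98 at 4x, 0.72 at 10x and 0.98 for the slope. At an unadjusted p under 0.05, 0 members were higher and 0 lower at 2x, against 1.30% and 1.96% of all promoters. At 4x, 1 member was higher (Pde4c, by 12.05 points) and 3 were lower (Adcy3, Adcy6 and Pde10a, at -8.65, -4.51 and -4.51 points), where 2.05% and 1.71% of all promoters were. At 10x, 1 member was higher (Akap12) and 2 were lower (Adcy6 and Pde3a, at -2.77 and -4.07 points), where 2.86% and 3.19% of all promoters were. With a fit of all 4 groups 3 members were higher and 0 lower at 4x, where 252 and 268 of all 15119 promoters were. On a log ratio scale 2 were higher and 0 lower at 4x, where 321 and 271 of all 15119 were. In the slope 2 were higher (Akap12 and Ptger2) and 0 lower, against 2.38% and 1.34%. The median difference from 0x over the 40 members was 0.83, 0.17 and 0.08 points at 2x, 4x and 10x, and over all promoters 0.23, -0.08 and 0.00. A difference of 5 points or more in either direction was seen in 15% of the members and 16.9% of all promoters at 10x.

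**Figure D4:**
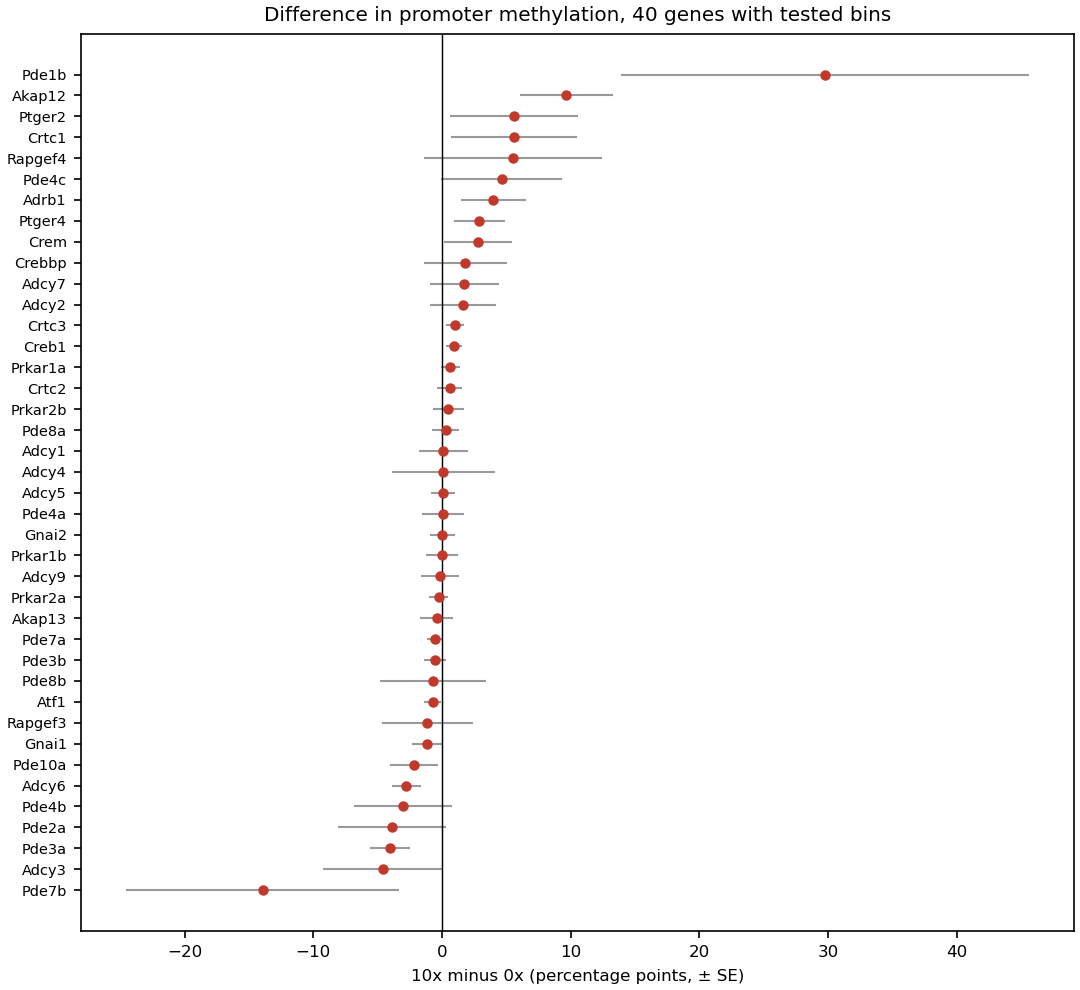
Difference in promoter methylation between 10x and 0x (percentage points, x axis, ± SE from limma) for the 40 genes with tested bins (rows, in order of the difference). Most lie within 5 points of 0. Pde1b at 29.7 and Pde7b at -13.9, with 1 tested bin each, have the widest errors, and no gene passed the adjusted threshold.

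Of the receptors, Ptger2 went from 2.33% ± 4.67 in 0x to 7.93% ± 9.83 in 10x and Adrb1 from 0.88% ± 0.92 to 4.86% ± 5.19 (SD, n = 4 and 6). The Adrb1 mean was highest in 4x at 10.3% ± 10.2. These Adrb1 values come from 1 tested bin, as do those of Gnai1, Gnai2 and Crtc1 below. Over its 7 bins without repeats Adrb1 was at 1.85% in 0x, 6.22% in 4x and 1.81% in 10x. Neither 10x difference over tested bins, 5.60 points in Ptger2 and 3.98 in Adrb1, was larger than the spread in 10x. Without 1 sample of 10x each they were 2.18 and 2.63. Of the inhibitory G protein subunits, Gnai2 was at 1.46% in both 0x and 10x. Gnai1 was at 1.41% ± 2.81 in 0x and 13.5% ± 23.8 in 4x (SD, n = 4 each), with 1 sample of 4x at 49.1% and the others at 3.41% or below. The transcription factors stayed low, with Crtc1 at 3.82% ± 7.64 in 0x and 9.41% ± 8.44 in 10x and Crem, which includes repressor isoforms induced by cAMP, at 2.70% ± 2.18 and 5.48% ± 5.16. Without 1 sample of 10x each, these differences of 5.59 and 2.78 points were 2.81 and 0.94. Of protein kinase A, the regulatory subunits Prkar1a and Prkar2b differed by 0.65 and 0.47 points at 10x.

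Among the adenylyl cyclases, Adcy3 was at 20.9% ± 2.82, 18% ± 3.87, 12.2% ± 3.13 and 16.3% ± 9.53 (SD, n = 4, 6, 4 and 6) for 0x, 2x, 4x and 10x. Adcy6, one of the calcium-inhibited cyclases, was at 21.5% ± 1.73, 17% ± 5.51, 17% ± 3.23 and 18.8% ± 1.56 in the same order, lower than 0x by 2.77 points at 10x with an adjusted p of 0.76 by limma. Of the Epac genes, Rapgef4 was at 25.3% ± 7.74 in 0x and 30.8% ± 13.4 in 10x, and its difference (5.51 points) was 0.30 without the 10x sample at 56.9%. The other Epac gene, Rapgef3, was at 7.60% ± 7.71 and 6.45% ± 4.38. Of the anchoring proteins, Akap13 differed by -0.43 points at 10x. Akap12, a scaffold that binds protein kinase A and protein kinase C, was at 2.73% ± 3.59, 5.60% ± 5.71, 6.47% ± 5.74 and 12.4% ± 7.07 over its 3 tested bins. Its difference at 10x was 9.65 ± 3.62 points (SE) with an adjusted p of 0.72 by limma, and its slope 0.92 ± 0.31 points per cycle with an adjusted p of 0.98.

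In single bins, a call needed an adjusted p under 0.05 over 84131 tested bins and a difference of at least 10 points. These are the tested bins of the whole genome, near a TSS or not, while the member bins all lie near a TSS. None of the 133 member bins was called at 2x, 4x or 10x, where 0.00357%, 0.00713% and 0.0131% of all bins were. At an unadjusted p under 0.05 with 10 points, no member bin was higher or lower at 2x (1.84% and 1.02% of all bins). At 4x 0 were higher (1.81% of all) and 2 lower (1.04% of all), in Pde2a and Adcy3. At 10x 1 was higher (2.90% of all) in Akap12 and 1 lower (1.28% of all) in Pde2a.

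The Akap12 bin lies in an intron, 771 bp downstream of the TSS, and is the first of the sequences above. Its levels were 0%, 0%, 4.53% and 0% in the 0x samples. In 2x the lowest, median and highest were 0%, 1.25% and 25%, in 4x the samples were at 0%, 39.6%, 12.1% and 0%, and in 10x the lowest, median and highest were 9.87%, 27.6% and 60%. All 6 10x samples lay above all 4 0x samples, while 2x and 4x overlapped both. The difference was 30.1 ± 9.20 points (SE) with an adjusted p of 0.57 by limma. Within the label numbers up to 12 it was 12.4 points and within those from 13 on 38.3 points. The neighbouring bins showed no such rise. The bin at the TSS was at 3.19% in 0x and 2.95% in 10x, the bin at 471 bp at 3.86% and 2.99% and the bin at 571 bp at 15.5% and 14.3%. With a 500-bp window the promoter difference was -0.55 points. The bins at 671 and 871 bp held repeated values, with means of 39.5% and 9.24% in 0x and 15.2% and 7.31% in 10x.

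Non-overlap of all samples was rare over the member bins. The shares given beside the counts are over the 84131 tested bins of the genome, near a TSS or not. In 10x against 0x it was found upward in 2 of 133 bins (0.899% of all tested bins), those of Akap12 and of Crtc3 at its TSS, and downward in 0 (0.420% of all). The Crtc3 bin was at 0.163% ± 0.216 in 0x and 2.60% ± 0.913 in 10x (SD, n = 4 and 6), a difference under the 10-point minimum. In 4x it was found upward in 3 bins (1.25% of all), of Creb1, Crtc3 and Prkar2b, each below 3% in both groups, and downward in 0 (0.708% of all). In 2x it was found in 0 bins upward and 0 downward (0.372% and 0.304% of all). Crtc3 and the bins in 4x were named after their values were seen.

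The Pde2a bin lies in an intron, 529 bp downstream of an internal start, and holds 1 CpG. Pde2a encodes a phosphodiesterase that hydrolyses cAMP and cGMP and is stimulated by cGMP. The 0x samples were at 61.9%, 56.1%, 47.1% and 54.6%. In 2x the lowest, median and highest were 0%, 0% and 100%, in 4x the samples were at 47.6%, 26.0%, 0% and 0%, and in 10x the lowest, median and highest were 0%, 15.8% and 50.7%. The untreated samples were close together and each treated group was spread below them, with 2x also above and 1 sample each of 4x and 10x within their range. The difference was -34.4 ± 10.4 points (SE) at 10x with an adjusted p of 0.55 by limma, and -36.5 ± 10.9 at 4x with an adjusted p of 0.97. In the labels up to 12 and from 13 on it was -23.1 and -37.9 points at 10x. The bin just upstream, at 429 bp, went the other way at 10x, from 22.7% ± 32.3 to 36.2% ± 37.4, with a difference of 13.5 points (0.74 without the 10x sample at 100%). The bins from -117 to 329 bp around this group of starts were below 5% in the mean of every group.

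**Figure D5:**
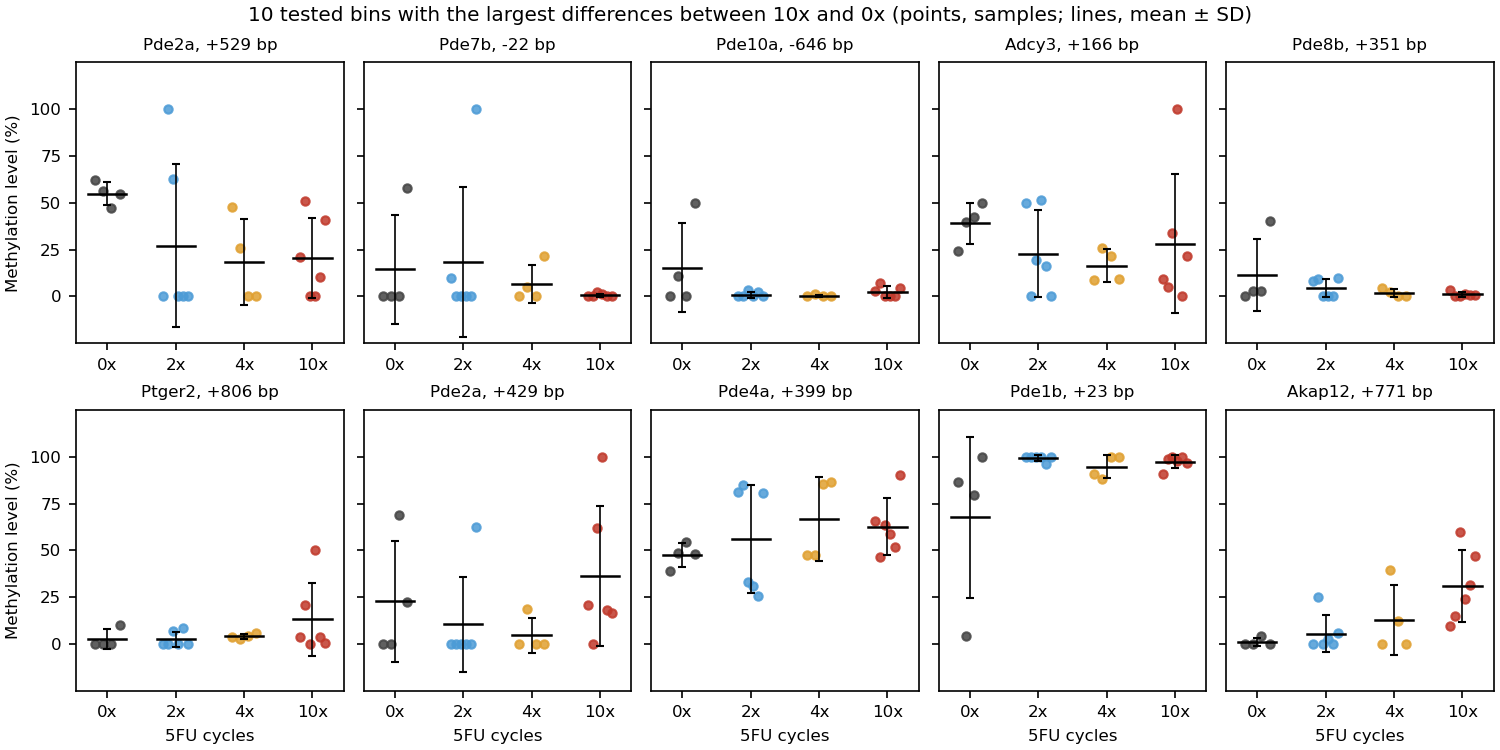
Methylation level (%, y axis) in each sample of the 10 tested bins with the largest differences between 10x and 0x, by 5FU cycles (x axis); points are samples and lines mean ± SD, and each panel gives the distance of the bin to its nearest start site. In Akap12 all 10x samples lie above all 0x samples, and in the other panels 10x and 0x overlap.

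In several other phosphodiesterase bins 1 sample set the difference. In Pde1b, which encodes a calmodulin-dependent phosphodiesterase, a bin 23 bp downstream of an internal start had 0x samples at 86.5%, 4.17%, 79.7% and 100%, and all 16 treated samples at 87.9% or above. This bin holds 0 whole CpGs, and 1 CpG spans its edge. The 10x difference of 29.7 points became 8.59 points without the 0x sample at 4.17%. In Pde7b the bin that holds the CRE, 22 bp upstream of the first start, was at 0%, 0%, 0% and 57.9% in 0x and at 0% to 2.22% in 10x. Its highest 2x sample was at 100% and its other 2x samples at 9.84% or below. The difference of -13.9 points at 10x became 0.54 without the 0x sample at 57.9%. The same 0x sample was the highest of its group in Pde10a at -646 bp (50%) and in Pde8b at 351 bp (40%), where the other 0x samples were at 10.9% or below. In Ptger2 a coding bin at 806 bp was at 0%, 0%, 0% and 10.3% in 0x, and in 10x its lowest, median and highest were 0%, 3.90% and 50%.

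The other bins with a CRE were low in all groups. The Pde7a bin, 78 bp upstream of the first start, was at 0.81%, 3.09%, 1.90% and 1.18% in 0x, 2x, 4x and 10x, and the Prkar1a bin at an internal start at 1.97%, 0%, 1.43% and 3.79%. Over the 567 bins near any TSS with a CRE the median was 1.56%, and 84.0% were below 10%. The shorter TGACG was found in 60 member bins (8.66%), against 7.19% of all bins near a TSS. The median level, repeated bins included, was 1.87% with it and 2.58% without it, and 2.08% and 3.80% over all bins near a TSS. The direction differed by start. At first starts the member medians were 1.62% with it (44 bins) and 1.94% without it. At internal starts they were 72.7% with it (16 bins) and 21.2% without it.

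Among bins of intermediate level close to a start, Pde4c had a bin that contains an internal TSS, with 0x samples at 17.8%, 34%, 20.4% and 19.9%. Its 4x samples were at 60.5%, 40.7%, 42.6% and 21.9%, and its 10x samples had a lowest, median and highest of 8.33%, 38.0% and 48.3%. The 4x samples overlapped 0x in 1 sample, with a difference of 18.4 ± 8.01 points (SE) and an adjusted p of 0.97 by limma. The Adcy3 bin at 166 bp, in an intron, had 0x samples at 24.0%, 39.8%, 42.2% and 50% and 4x samples at 9.02%, 26.1%, 21.4% and 9.21%. The 4x samples overlapped 0x in 1 sample, with a difference of -22.6 ± 6.45 points (SE) and an adjusted p of 0.97 by limma. Its 10x samples ran from 0% to 100% around a median of 15.5%. The adjacent Adcy3 bin was at 39.2% ± 6.82 in 0x and 32.1% ± 7.33 in 10x.

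The Pde4a bin at 399 bp of an internal start lies in a coding exon of this cAMP-specific phosphodiesterase. Its 0x samples were at 39.0%, 48.5%, 54.2% and 48.1%, and its 4x samples at 47.3%, 47.7%, 85.6% and 86.6%. In 10x the lowest, median and highest were 46.4%, 61.1% and 90.2%, and the difference was 15.2 ± 7.63 points (SE) with an adjusted p of 0.83 by limma. In Rapgef4 a bin with 1 CpG, 118 bp upstream of an internal start, was at 62.6% ± 43.4 in 0x and 69.3% ± 8.58 in 10x. In Pde10a, a phosphodiesterase for cAMP and cGMP, an intronic bin 271 bp upstream of an internal start was at 32.4% ± 21.6 and 30.4% ± 10.8.

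Bins of Prkar1b and Adcy6 were among the 5 with the largest differences after 2 cycles. In Prkar1b, a regulatory subunit of protein kinase A, a bin of 20 CpGs in a non-coding exon was at 100% in 2 samples of 2x and at 0% to 1.49% in the other 4. It did not exceed 4.86% in any sample of 0x, 4x or 10x. This bin also lies within 1 kb of a TSS of Dnaaf5. In Adcy6 a bin at an internal TSS was at 100%, 100%, 83.1% and 86.4% in 0x, and its 2x samples had a lowest, median and highest of 45.9%, 70.2% and 100%. The difference of -23.0 ± 10.4 points (SE) had an adjusted p of 1.0 by limma.

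The 234 repeated bins held larger group differences, which are given as values with no test. Just upstream of the first start of Adcy4 a bin was at 100% in all 0x samples, at 19.6% in all 2x samples, at 81.8% to 91.3% in 4x and at 0% to 26.9% in 10x. A bin of Gnai2 at -609 bp was at 71.0% in all 0x, 100% in all 2x and 4x and 0% in all 10x samples, and a bin of Prkar2b at 690 bp at 21.5%, 21.5%, 0% and 100%. A bin of Akap13 at -311 bp went from 100% to 40.2% ± 32.5 in 10x and a bin of Adcy9 at 531 bp from 59.8% ± 42.4 to 0%. A single value between 0 and 100 was shared by the whole group in 47 of the 234 bins for 0x, 55 for 2x, 31 for 4x and 19 for 10x.

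When all deposited bins that vary were kept in the same limma fit, repeated values included, promoters of 5, 7 and 5 of the 46 members passed an adjusted p of 0.05 at 2x, 4x and 10x, where 22.0%, 13.9% and 15.6% of all promoters did. In the slope 3 of the 46 passed, and 9.63% of all promoters. In single bins it was 33, 24 and 24 of 553 member bins. Of all 701483 such bins of the genome, near a TSS or not, 14%, 10.0% and 10.8% were called. The promoters passing at 10x were Adcy4, Adcy6 and Gnai2, which were lower, and Prkar2b and Rapgef4, which were higher, and they were named after their values were seen. Over their tested bins these 5 promoters differed by 0.08, -2.77, 0.00, 0.47 and 5.51 points in that order. Over all bins without repeats, Adcy4 went from 63.0% in 0x to 59.8% in 10x, Adcy6 from 29.1% to 27.3% and Gnai2 from 1.16% to 0.29%. Prkar2b went from 1.57% to 1.99% and Rapgef4 from 29.3% to 33.9%, with no test. Filled values enter the fit of all deposited bins as if they were measured.

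Of 88 further genes of the pathway (other G protein subunits, receptors, phosphodiesterases, anchoring proteins and targets), 82 had a bin and 61 were tested. None passed an adjusted p of 0.05 in any comparison by limma. At an unadjusted p under 0.05, 0 were higher and 0 lower at 2x, 2 higher (Akap9 and Pth1r) and 1 lower (Pde1c) at 4x, and 2 higher (Cnga1 and Glp1r) and 1 lower (Akap6) at 10x. Of all promoters 2.05% were higher and 1.71% lower at 4x, and 2.86% and 3.19% at 10x. The largest differences at 10x were in Cnga1, a subunit of a cyclic nucleotide-gated channel, from 78.4% ± 16.8 to 96.3% ± 7.62, in Akap6, another kinase anchor, from 95.0% ± 8.04 to 78.2% ± 8.96, and in Creb3l4, a membrane-bound factor of the CREB family, from 24.9% ± 11.9 to 35.8% ± 26.8 (SD, n = 4 and 6).

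Promoters of marker genes were used to look at the labelled cell type, although methylation is not expression. Here the level of a gene was taken over all its bins, repeated bins included, so filled values enter it. The median over genes was 2.29% for HSC and progenitor genes (9 of 10 genes with bins) and 100% for T cell genes (3 of 5). It was 42.8% for B cell genes (4 of 5), 62.2% for granulocyte and monocyte genes (3 of 6) and 20.6% for erythroid genes (3 of 5). Genes within a list differed. HSC and progenitor genes ran from 0.145% to 64.3%, and granulocyte and monocyte genes from 17.8% to 90.7%. None of the tested marker promoters passed an adjusted p of 0.05. At an unadjusted p under 0.05 by limma, 0 tested marker promoters were higher or lower at 2x and at 4x. At 10x, 1 of 5 tested HSC and progenitor promoters and the 1 tested B cell promoter were higher and 0 were lower. Of all promoters 2.86% were higher and 3.19% lower at 10x. The part of these marker promoters in the results was not tested.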

How the data were processed

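RRBS methylation of HSCs was analysed in 20 samples. Per the labels and the methods, reads were trimmed with Trim Galore 0.4.3 (minimum quality 25) and aligned to mm10 with Bismark 0.23.1, and methylKit 1.22.0 was named. The authors deposited percent methylation per 100-bp bin, computed where coverage was more than 10 reads, with missing bins filled by the mean of the experimental group. Read counts and the filled bins were not marked, so the depth per sample and the precision it gives are unknown.

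Bins were assigned to RefSeq TSSs of GRCm38.p6 (window 1000 bp). In the comparisons a promoter was the mean of its tested bins. In the description of levels by role and start site it was the mean of its bins without repeats. Percentages were compared with limma 3.58.1 (R 4.3.3) in fits of each treated group with 0x, and by a slope over cycles in all 20 samples. Benjamini-Hochberg adjustment ran over all promoters or bins. The code was tested on simulated data. Alternatives were the set of bins, a 500-bp window, curated transcripts, a fit of all 4 groups, the label number series (up to 12, from 13) as a block, a log ratio scale and leaving out each sample. Label numbers are not shared between groups and mark no stated batch.

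Named items were, per role, the 2 promoters with the largest difference at 10x, the 10 tested bins with the largest difference at 10x and 5 each at 2x and 4x, the 5 nearest a TSS of intermediate level, the 5 repeated bins with the largest difference, and among other pathway genes the 3 largest. Members and lists were chosen with earlier results of these data known. Some marker genes are not reported here.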

Additional observations from a re-analysis of the deposited data

Results flagged for a closer look

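In the 10 tested bins with the largest differences between 10x and 0x and in the mean over tested bins, 44 groups of samples were searched for a sample far from the others of its group, and 13 had one. Chance flags about 1 in 20 groups of unselected, normally spread values. These bins were chosen for their difference, which a single sample can produce, and many values lie at 0 or 100, so that rate does not apply to them. In bins near 0 or 100 such a gap can be a few points. Among the untreated samples, 0x sample 14 stood out in Pde7b at -22 bp (57.9%), Pde8b at 351 bp (40%) and Ptger2 at 806 bp (10.3%), and 0x sample 13 in Akap12 at 771 bp (4.53%). In 2x, sample 18 stood out in Pde7b at -22 bp (100%) and Pde2a at 429 bp (62.5%), sample 04 in Akap12 at 771 bp (25%) and sample 17 in Pde1b at 23 bp (96.1%). In 4x, sample 06 stood out in Pde10a at -646 bp (1.07%) and Pde2a at 429 bp (18.6%). In 10x, sample 32 stood out in Adcy3 at 166 bp (100%), and sample 11 in Pde1b at 23 bp (90.7%) and Pde8b at 351 bp (3.57%).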

How the results depend on the processing

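No member promoter was called in any comparison by limma under the alternatives run without repeated values (bins in which at least 1 group varies, the 500-bp window, curated transcripts, the fit of all 4 groups for the comparisons with 0x, the log ratio scale, the label number block and each left-out sample, 0 to 0 calls). The same held for bins, for which curated transcripts were not run. With all deposited bins kept, 5, 7 and 5 promoters were called at 2x, 4x and 10x, 3 in the slope, and 33, 24 and 24 bins (9.63% to 22.0% of all promoters and 10.0% to 14% of all bins). The mean over member bins ranged with each sample left out from -0.23 to 0.48 points at 2x, -0.67 to -0.09 at 4x and -0.10 to 0.52 at 10x. It moved to -0.91 points at 2x when bins in which at least 1 group varies were used, and to -0.62 at 10x with all deposited bins. Differences of promoters at 10x changed sign in the following settings, and the cause was not tested. With a 500-bp window Akap12 was at -0.55 (the bin at 771 bp is then left out), Akap13 at 0.29 and Crem at -0.90. With all deposited bins Akap13 was at 2.86, Gnai2 at -8.25, Ptger2 at -4.37 and Adrb1 at -0.94. With bins in which at least 1 group varies Akap13 was at 2.72, Gnai2 at -2.18 and Adrb1 at -0.081. With a sample left out the range was -1.12 to 0.28 for Akap13, -3.01 to 2.65 for Rapgef3, -1.64 to 0.23 for Gnai1, -0.49 to 0.45 for Gnai2, -18.8 to 0.54 for Pde7b (promoter and bin) and -0.17 to 1.06 for Prkar2b. Without changing sign, the range was 0.30 to 8.18 for Rapgef4, 2.18 to 7.93 for Ptger2, 0.94 to 3.70 for Crem, 2.81 to 9.41 for Crtc1, -8.18 to -2.96 for Adcy3 and 8.59 to 40.5 for Pde1b. The Akap12 bin ranged from 24.3 to 34.3 and the Pde2a bin at 529 bp from -40.4 to -30.3. No paired analysis was possible because label numbers are not shared between groups. Depth above the minimum coverage is unknown, and filled values at 0 or 100 cannot be told from measured ones.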
